A study of Mus musculus with 6 samples.

Results

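The genes described here are the protein-coding members of the core splicing machinery that can be recognised by symbol in the mouse annotation, namely the SR proteins (Srsf), the heterogeneous nuclear ribonucleoproteins (Hnrnp), the SF3A and SF3B subunits of the U2 snRNP (Sf3a, Sf3b), the proteins of the small nuclear ribonucleoproteins (Snrp) and the U2 auxiliary factor (U2af). Taken by symbol and biotype from a table of read counts for 54532 genes, they number 55, of which 53 passed the filter on low counts and were tested. The other 2, Srsf12 and U2af1l4, were listed at 0 in all 6 libraries. The libraries came from N9 microglia, an immortalized microglial line from mouse brain that was cultured in serum-containing medium in both groups. In 3 libraries these cells were untreated (control), and in 3 they had received lipopolysaccharide (LPS, a component of the gram-negative outer membrane that activates microglia) at 1 µg/ml for 6 h. The labels name no difference between the groups other than LPS, and no time is given for the control libraries. The comparison of LPS-stimulated N9 microglia versus control cells asks how far transcripts of these genes move during the inflammatory response.

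Introns are removed by the spliceosome, which assembles stepwise on each pre-mRNA. The U1 snRNP pairs with the 5′ splice site, U2AF marks the polypyrimidine tract and the AG of the 3′ splice site, and the U2 snRNP with its SF3A and SF3B subunits is then placed on the branch point. SR proteins bind exonic enhancers and help these factors to bind, whereas many hnRNPs package nascent RNA and oppose or shift splice site choice. Several SR and hnRNP genes also limit their own output by including exons that send their transcripts to nonsense-mediated decay (NMD), and macrophage-lineage cells are known to change isoforms of signalling genes after LPS.

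The libraries held between 16363767 and 17956772 counts, and 3 counts corresponded to between 0.161 and 0.19 CPM (counts scaled by the TMM-normalized library size). The mean count of a tested member lay between 276 and 19101, so that all were measured well above the filter. The labels do not say that replicates came from separate cultures, and the p-values then measure only the spread between these libraries, which may be technical. Of 15 microglial markers 10 passed the filter, with Cd68, Csf1r and Ptprc high, whereas Sall1 reached at most 1 count, P2ry12 at most 6 and Aif1 at most 9. Control replicates 2 and 3 stood apart from the other 4 libraries by counts of liver transcripts. Alb, serum albumin, had 155 and 292 counts in these 2 libraries and between 0 and 2 in the others, and 18 of 20 hepatocyte markers were below the filter. Counts for the members are therefore also given without those libraries. Counts were summed per gene, so that coding, NMD and intron-retaining transcripts of a gene could not be separated. Positions are those of the deposited table, on build mm10 by the submitters' processing notes, and 50 of the 55 genes have the same start and end in GENCODE release M21 on GRCm38. In that annotation, 27 of the 55 genes have an annotated NMD transcript, among them 9 of 11 SR genes, and 41 have a transcript with a retained intron.

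The largest change of any tested member with LPS was a rise of 28.7%, for Srsf11, and the largest fall was 15.8%, for Hnrnpr. At an adjusted p under 0.05 (edgeR quasi-likelihood test, Benjamini-Hochberg over 12296 genes), 8 of the 53 tested members were up-regulated and 6 were down-regulated, which is 26.4% of the members. Over all tested genes the same call was made for 34.3%, with 18.7% up-regulated and 15.7% down-regulated. Among the 7896 tested genes whose mean count was at least that of the lowest member, 41.9% were called. The median log2FC of the members was 0.03, against 0.0036 over all tested genes, and the median absolute log2FC was 0.07 against 0.17. Among those 7896 genes the median absolute log2FC was 0.14. No member passed the thresholds that the study used for a DEG (adjusted p under 0.05 and absolute log2FC over 1.5), where 2.65% of all tested genes did. None exceeded an absolute log2FC of 0.5, where 16.1% of all tested genes and 10.0% of those 7896 genes did. With scaling to library totals alone in place of TMM, the median of all tested genes moved to -0.09 and the member calls to 1 up-regulated and 13 down-regulated, so the balance of directions depended on the scaling. In bulk RNA, fewer cells with a transcript and less of it per cell cannot be told apart.

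The 95% interval of the fold change lay within 1.5-fold in either direction for 53 of 53 members, compared with 68.0% of all tested genes and 87.3% of those with a mean count at or above that of the lowest member. It lay within 1.25-fold for 50 members (94.3%), compared with 40.3% and 59.6%. The exceptions were Srsf11, whose log2 interval ran 0.26 to 0.47, Hnrnpr at -0.35 to -0.15 and Snrpf at -0.17 to 0.35. The libraries of the groups did not overlap for 19 members, 11 higher and 8 lower with LPS (35.8%), where this held for 45.3% of all tested genes, 23.7% higher and 21.5% lower. Among tested genes with a mean count at or above that of the lowest member, 52.4% did not overlap. Permuting the 6 libraries of 1 gene (exact, two-sided) could at best give p = 0.1.

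**Figure D1:**
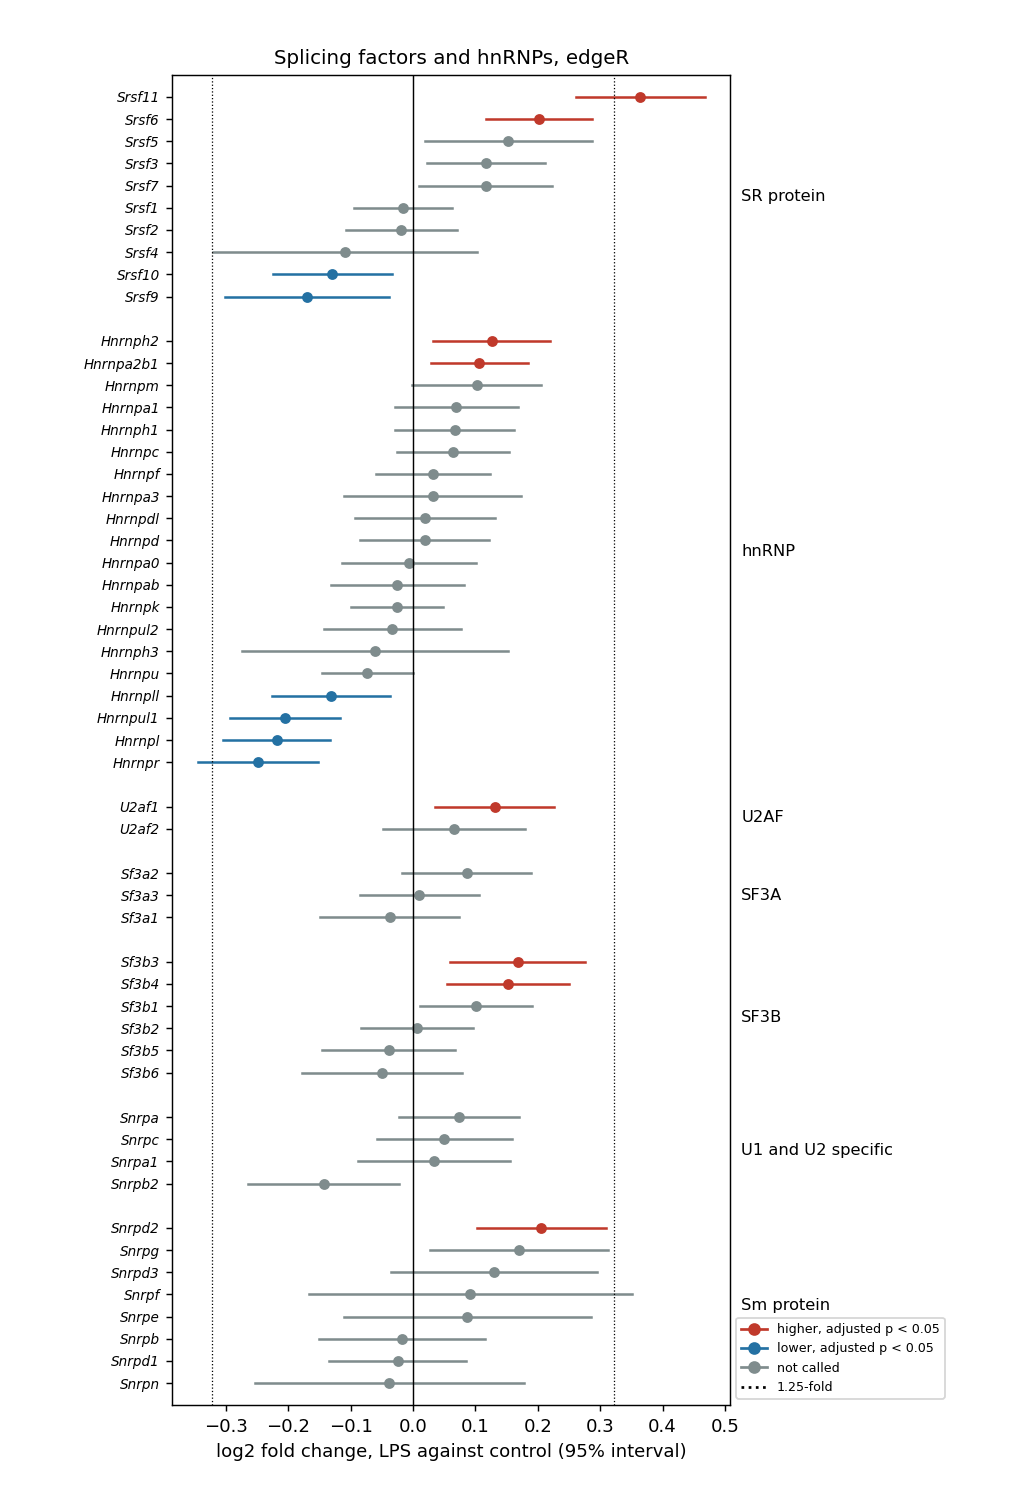
Log2 fold change of each of the 53 tested members, LPS against control (horizontal axis, edgeR), grouped by role, with bars for the 95% interval and dotted lines at 1.25-fold. Red and blue points are the 8 up-regulated and 6 down-regulated members, and every interval stays inside 1.5-fold (0.585 on the log2 scale).

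**Figure D2:**
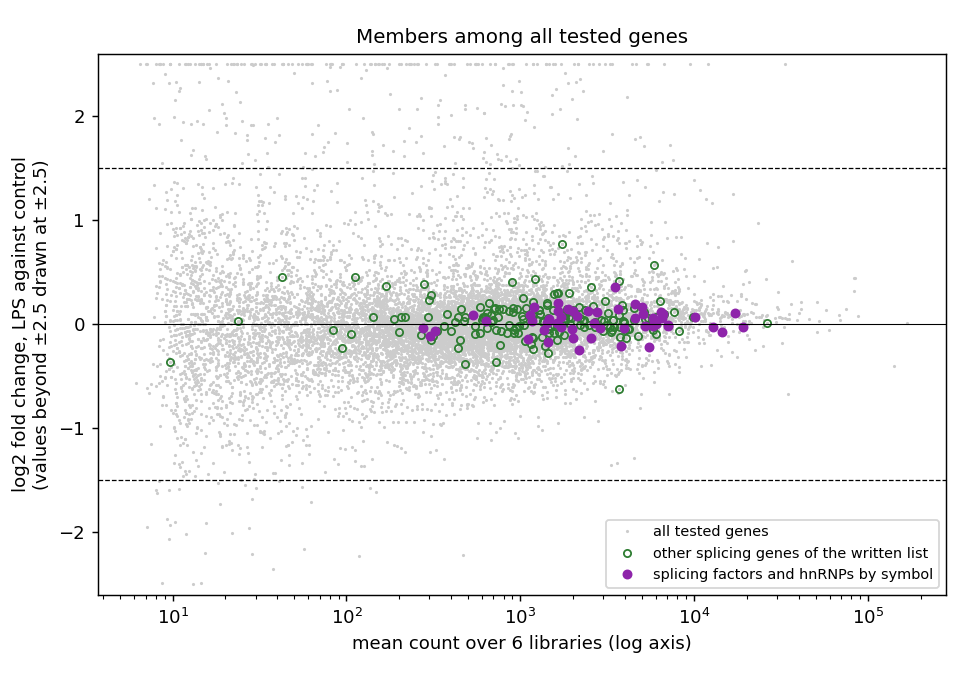
Log2 fold change, LPS against control, over the mean count in 6 libraries (log axis) for all 12296 tested genes (grey), the 53 members (purple) and other splicing genes (green rings). The dashed lines mark an absolute log2 fold change of 1.5, which no member reaches, and the members lie between -0.25 and 0.36.

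Among the SR proteins, 10 of 11 were tested, 2 were up-regulated and 2 were down-regulated, with a median log2FC of 0.05. The largest change of all members was that of Srsf11 (ENSMUSG00000055436, from 158010473 to 158036639 on chromosome 3), an SR-related protein of nuclear speckles that binds U2AF. Srsf11 had 173, 189.5 and 181 CPM in control replicates 1, 2 and 3 and 236, 223 and 239.5 CPM in LPS replicates 1, 2 and 3. All LPS libraries were above all control libraries, a rise of 28.7% (log2FC 0.36 ± 0.05 (SE), adjusted p = 3e-05). Srsf6 (ENSMUSG00000016921, from 162931528 to 162937121 on chromosome 2), a classical enhancer-binding SR protein, was at 248, 252 and 252 CPM in control and 291, 284 and 288 CPM in LPS libraries. Its replicates were close together within each group, and it rose by 15% (log2FC 0.20 ± 0.04 (SE), adjusted p = 0.00108).

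Both down-regulated SR genes changed by less. Srsf9, a small SR protein related to Srsf1, had 98.7, 82.5 and 87.0 CPM in control and 81.8, 77.7 and 78.9 CPM in LPS libraries. Control replicate 1 was its highest library, and without that library the log2FC was -0.11 instead of -0.17 and the call was lost (adjusted p = 0.143, 0.045 with it). DESeq2 did not call Srsf9 (adjusted p = 0.0564). Srsf10, which in its dephosphorylated form represses splicing during mitosis and heat shock, had 156, 162 and 151 CPM in control and 145, 141 and 143 CPM in LPS libraries (log2FC -0.13 ± 0.04 (SE), adjusted p = 0.0364). With each library omitted in turn (leave-one-out), Srsf10 was called in 2 of 6 fits.

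The best known SR proteins were not called. Srsf1, the prototype of the family, was at 421, 419.8 and 415 CPM in control and 412, 411 and 419.8 CPM in LPS libraries, with a log2 interval of -0.10 to 0.06. Srsf2, a defining protein of nuclear speckles, had 348, 332 and 349.7 CPM and then 349, 331 and 336 CPM with LPS. Srsf2 shares exon sequence with Mettl23 and Mfsd11 on the opposite strand, and the use of strand in counting is not given in the sources used here. For Srsf3, which also couples splicing to mRNA export, the control libraries held 382, 352 and 361 CPM and the LPS libraries 412, 386 and 389.8 CPM. These did not overlap, yet the adjusted p was 0.0534 (log2FC 0.12), and without control replicate 1 it was 0.0194 (log2FC 0.14). Srsf3 was also called by DESeq2 (adjusted p = 0.0478) and by edgeR with robust dispersion (0.0259), with protein-coding genes alone (0.0413) and with the length trend removed (0.0391). Srsf7, an export adaptor like Srsf3, ran 167, 151 and 150.4 CPM in control and 173, 165 and 169 CPM in LPS libraries (log2FC 0.12, adjusted p = 0.0893), and without control replicate 1 the adjusted p was 0.0173. Srsf5 was at log2FC 0.15 (adjusted p = 0.0748) and Srsf4, the least counted of the tested SR genes, at -0.11 (adjusted p = 0.436).

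The promoters of the 6 members called in every leave-one-out fit are given because these are the calls that rest on no single library. They are the RefSeq windows of build GRCm38.p6, from 250 bases before to 50 after the start, 5′ to 3′ on the gene's strand. Capitals mark matches, on either strand, to 5 of 10 searched motifs, namely CCAAT, the GC box GGGCGG, an ETS type CCGGAAG, an NRF1 core GCATGCG and a YY1 type AAGATGG. Srsf11 has windows at a pair of start sites and Srsf6 has 1.
Srsf11, chr3:158031699-158031998, minus strand: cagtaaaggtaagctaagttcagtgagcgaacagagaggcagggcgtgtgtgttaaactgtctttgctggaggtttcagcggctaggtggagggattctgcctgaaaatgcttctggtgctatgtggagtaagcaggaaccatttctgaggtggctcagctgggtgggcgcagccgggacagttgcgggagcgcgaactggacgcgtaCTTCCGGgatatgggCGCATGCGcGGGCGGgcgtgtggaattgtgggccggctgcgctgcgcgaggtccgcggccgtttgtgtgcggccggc
Srsf11, chr3:158036557-158036856, minus strand: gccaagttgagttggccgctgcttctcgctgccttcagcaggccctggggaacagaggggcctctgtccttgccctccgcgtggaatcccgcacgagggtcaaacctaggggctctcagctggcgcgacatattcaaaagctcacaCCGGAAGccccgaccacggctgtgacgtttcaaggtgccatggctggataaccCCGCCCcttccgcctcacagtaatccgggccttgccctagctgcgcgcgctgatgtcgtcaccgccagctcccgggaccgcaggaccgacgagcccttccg
Srsf6, chr2:162931258-162931557, plus strand: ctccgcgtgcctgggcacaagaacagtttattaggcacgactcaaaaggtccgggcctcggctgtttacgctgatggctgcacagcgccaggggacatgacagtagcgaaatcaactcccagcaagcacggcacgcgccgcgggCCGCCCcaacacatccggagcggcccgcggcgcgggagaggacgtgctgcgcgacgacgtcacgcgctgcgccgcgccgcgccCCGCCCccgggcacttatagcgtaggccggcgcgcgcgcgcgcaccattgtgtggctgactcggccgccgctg

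Both Srsf11 windows hold an ETS type motif and a GC box, and the window at 158031699 also has NRF1 cores that overlap each other on opposite strands. The Srsf6 window holds 2 GC boxes and neither CCAAT nor the ETS type. Windows were found for 48 of the 55 members, 66 windows in all. The ETS type occurred in 33.3% of the members with a window, against 21.4% of the 9082 tested genes with one, and the GC box in 70.8% against 69.2%. CCAAT occurred in 24 of the 48 members against 43.6% of tested genes, and the NRF1 core in 12.5% against 7.69%. The letters of an interferon-stimulated response element, GAAANNGAAA, were in none of the 48 and in 3.83% of tested genes. Those of an NF-kappa B type site, GGGNNTTTCC, were in none of the 48 and in 2.04% of tested genes. The AP-1 letters TGACTCA were in 4.17% of members and 4.56% of tested genes, the YY1 type in 4.17% against 8.85%, the E-box CACGTG in 12.5% against 12%, and TATAAA in 14.6% against 8.49%. A letter match is a description of the window and does not show binding.

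Of the 20 hnRNPs, all tested, 2 were up-regulated and 4 were down-regulated, with a median log2FC of 0.006. Hnrnpr (ENSMUSG00000066037, from 136310942 to 136359447 on chromosome 4), an hnRNP that also binds mRNAs carried into axons, had 141, 139 and 138 CPM in control and 122, 115 and 114 CPM in LPS libraries. No LPS library reached the lowest control library, and Hnrnpr fell by 15.8% (log2FC -0.25 ± 0.05 (SE), adjusted p = 0.000552). Hnrnpl (ENSMUSG00000015165, from 28808541 to 28822266 on chromosome 7) binds CA-rich RNA and represses variable exons of CD45. It was at 341, 349 and 346 CPM in control and 297, 305 and 289 CPM in LPS libraries, a decrease of 14.0% (log2FC -0.22 ± 0.04 (SE), adjusted p = 0.000594). Hnrnpul1 (ENSMUSG00000040725, from 25721165 to 25754757 on chromosome 7), an RNA-binding protein of the hnRNP U family with a part in the DNA damage response, was at 242, 235 and 236 CPM in control and 203, 209 and 206 CPM in LPS libraries, 13.3% lower (log2FC -0.21 ± 0.04 (SE), adjusted p = 0.00125). Hnrnpll, the paralog of Hnrnpl that acts on the same CD45 exons in lymphocytes, also fell, from 123, 122 and 126 CPM to 109.5, 115 and 114 CPM (log2FC -0.13 ± 0.04 (SE), adjusted p = 0.0308), but was called in only 2 of the 6 leave-one-out fits. Hnrnpr and Hnrnpl each share exon sequence with a predicted gene on the opposite strand.

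The promoter windows of the 3 firmly called hnRNP genes are shown as those of the falls that were called in every fit.
Hnrnpr, chr4:136310692-136310991, plus strand: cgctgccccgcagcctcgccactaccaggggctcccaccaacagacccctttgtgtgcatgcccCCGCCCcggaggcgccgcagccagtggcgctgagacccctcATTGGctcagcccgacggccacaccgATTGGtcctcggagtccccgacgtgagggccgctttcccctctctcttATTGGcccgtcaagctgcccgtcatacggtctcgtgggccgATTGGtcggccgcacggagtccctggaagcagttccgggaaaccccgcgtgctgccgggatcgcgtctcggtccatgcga
Hnrnpr, chr4:136311348-136311647, plus strand: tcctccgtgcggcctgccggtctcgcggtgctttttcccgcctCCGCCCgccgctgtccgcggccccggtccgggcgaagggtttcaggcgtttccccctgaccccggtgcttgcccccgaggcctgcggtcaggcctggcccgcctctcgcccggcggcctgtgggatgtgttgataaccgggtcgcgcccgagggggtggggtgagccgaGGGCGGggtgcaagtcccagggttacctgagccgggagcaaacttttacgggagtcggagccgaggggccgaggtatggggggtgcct
Hnrnpl, chr7:28810640-28810939, plus strand: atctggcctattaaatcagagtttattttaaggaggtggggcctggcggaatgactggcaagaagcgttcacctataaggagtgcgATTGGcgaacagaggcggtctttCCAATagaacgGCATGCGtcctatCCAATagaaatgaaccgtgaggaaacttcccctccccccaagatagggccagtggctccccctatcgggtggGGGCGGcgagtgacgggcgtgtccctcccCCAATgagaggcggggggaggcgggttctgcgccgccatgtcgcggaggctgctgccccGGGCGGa
Hnrnpul1, chr7:25754710-25755009, minus strand: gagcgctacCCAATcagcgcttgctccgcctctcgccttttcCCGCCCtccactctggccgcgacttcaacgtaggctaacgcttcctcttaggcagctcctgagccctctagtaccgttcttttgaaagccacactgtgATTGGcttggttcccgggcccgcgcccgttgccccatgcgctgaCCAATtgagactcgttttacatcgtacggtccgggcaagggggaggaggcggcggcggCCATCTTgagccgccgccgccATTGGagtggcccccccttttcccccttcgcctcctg

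CCAAT or its reverse ATTGG occurs 4 times in the upstream Hnrnpr window, 4 times in that of Hnrnpl and 4 times in that of Hnrnpul1, and not in the second Hnrnpr window. Among called members with a window, CCAAT was present in 4 of 5 that fell and in 4 of 7 that rose. The GC box was present in 5 of 5 and 5 of 7.

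The 2 up-regulated hnRNPs rose by 7.63% and 9.12%. Hnrnpa2b1, a reader of RNA with roles in splicing and RNA transport, was among the most counted members at 1019, 937 and 953 CPM in control and 1037, 1027 and 1067 CPM in LPS libraries (log2FC 0.11 ± 0.04 (SE), adjusted p = 0.0359). Hnrnph2, which binds G-rich runs and lies on the X chromosome, had 142, 137 and 135 CPM and 152, 147 and 153 CPM with LPS (log2FC 0.13 ± 0.04 (SE), adjusted p = 0.0373). Hnrnpa2b1 was called in 2 and Hnrnph2 in 1 of the 6 leave-one-out fits. DESeq2 did not call Hnrnph2 (adjusted p = 0.0723).

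The other 14 hnRNPs were not called. Hnrnpab held the most counts of all members, with 1252, 1066 and 1085 CPM in control and 1091, 1117 and 1136 CPM in LPS libraries, and control replicate 1 was the highest of the 6. Hnrnpa1, which antagonises SR proteins at exonic silencers, had 623, 554 and 557 CPM in control and 589, 608 and 623 CPM in LPS libraries (log2FC 0.07, adjusted p = 0.279). Without control replicate 1, Hnrnpa1 was at log2FC 0.12 (adjusted p = 0.0273). Hnrnpu, a nuclear matrix protein that holds chromatin-associated RNA, ran 875, 877 and 860.0 CPM in control and 806, 857 and 818 CPM with LPS. Its libraries did not overlap, with an adjusted p of 0.113 (log2FC -0.07). Hnrnpk, a poly-C binding protein, ran 789, 760.4 and 746 CPM in control and 763, 741 and 749.9 CPM in LPS libraries, with a log2 interval of -0.10 to 0.05. The groups overlapped for Hnrnpk. Hnrnpc, which coats uridine tracts, was at log2FC 0.06 (adjusted p = 0.276). Hnrnpd, also called AUF1, which promotes decay of cytokine mRNAs with AU-rich elements, ran 159.7, 156 and 149.6 CPM in control and 152, 154 and 165 CPM with LPS (log2FC 0.02, log2 interval -0.09 to 0.12). Hnrnpm was at 405, 361 and 358 CPM in control and 399.8, 398 and 408 CPM in LPS libraries (log2FC 0.10, adjusted p = 0.12), and without control replicate 1 at log2FC 0.15 (adjusted p = 0.00752). Control replicate 1 was the highest control library for Hnrnpab, Hnrnpa1 and Hnrnpm alike. The remaining 7 (Hnrnpa0, Hnrnpa3, Hnrnpdl, Hnrnpf, Hnrnph1, Hnrnph3 and Hnrnpul2) lay between -0.06 and 0.07 in log2FC, with overlapping libraries.

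**Figure D3:**
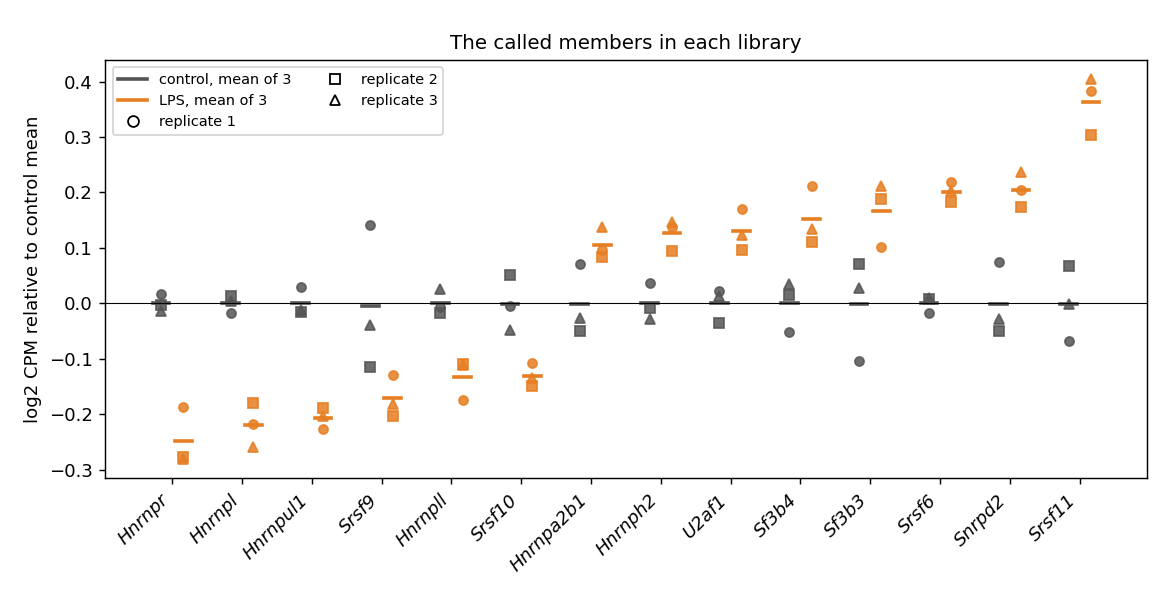
The 14 called members in each library, as log2 CPM relative to the control mean (vertical axis), with a bar for the mean of 3 libraries and a symbol for each replicate. The groups do not overlap for any of the 14, and Srsf9, Sf3b3 and Srsf11 have the widest range between control libraries.

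At the 3′ splice site, U2af1, which contacts the AG dinucleotide, was up-regulated. It had 115, 109.9 and 114 CPM in control and 127, 121 and 123 CPM in LPS libraries (log2FC 0.13 ± 0.04 (SE), adjusted p = 0.0351). The groups were separate but close, and U2af1 was called in 1 of the 6 leave-one-out fits and not by DESeq2 (adjusted p = 0.0875). U2af2, its partner on the polypyrimidine tract, had 282, 248 and 257 CPM in control and 262, 274 and 287 CPM in LPS libraries, which overlapped (log2FC 0.07, adjusted p = 0.381). U2af1l4, a paralog of U2af1, was listed at 0 in every library, and its exons overlap those of Psenen on the opposite strand and of a further gene model on its own strand.

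Of the 9 SF3A and SF3B subunits, 2 were up-regulated and none was down-regulated. Sf3b3, the large scaffold of SF3B, had 259, 293 and 284 CPM in control and 299, 317 and 323 CPM in LPS libraries (log2FC 0.17 ± 0.05 (SE), adjusted p = 0.0187). Control replicate 1 was its lowest library, and without it the log2FC was 0.11 and the adjusted p was 0.0865. Sf3b4, which touches the pre-mRNA near the branch point, had 196, 205 and 208 CPM in control and 235, 219 and 223 CPM with LPS (log2FC 0.15 ± 0.05 (SE), adjusted p = 0.018). Sf3b4 kept its call in 4 leave-one-out fits of 6. Without control replicate 1 its adjusted p was 0.0723, and without LPS replicate 1 it was 0.0778. Sf3b1, the subunit that clamps the branch point helix and is mutated in myeloid neoplasms, was at 275, 291 and 294 CPM in control and 307, 303 and 312 CPM in LPS libraries. The libraries did not overlap, and the adjusted p was 0.0809 (log2FC 0.10). Sf3b2, Sf3b5 and Sf3b6 lay between -0.05 and 0.01 in log2FC. Sf3b3 shares exon sequence with Cog4 on the opposite strand, and Sf3b4 with a predicted gene there. None of the 3 SF3A subunits was called, with Sf3a2 at 0.09 and Sf3a3 at 0.01 in log2FC. Sf3a1, known for its effect on Myd88 isoforms in macrophages, had 159, 182 and 169 CPM in control and 167, 169 and 161 CPM in LPS libraries (log2FC -0.04, log2 interval -0.15 to 0.07).

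The Sm proteins form the ring around the snRNA of each spliceosomal snRNP, and 1 of 8 was called. Snrpd2 (ENSMUSG00000040824, from 19149722 to 19153542 on chromosome 7) had 94.8, 86.9 and 88.3 CPM in control and 104, 102 and 106 CPM in LPS libraries. All LPS libraries exceeded all control libraries, by 15.3% on average (log2FC 0.21 ± 0.05 (SE), adjusted p = 0.00393). Without control replicates 2 and 3 together, Snrpd2 was at log2FC 0.13 with an adjusted p of 0.2. Its promoter window is printed as that of the only Sm gene called.
Snrpd2, chr7:19149588-19149887, plus strand: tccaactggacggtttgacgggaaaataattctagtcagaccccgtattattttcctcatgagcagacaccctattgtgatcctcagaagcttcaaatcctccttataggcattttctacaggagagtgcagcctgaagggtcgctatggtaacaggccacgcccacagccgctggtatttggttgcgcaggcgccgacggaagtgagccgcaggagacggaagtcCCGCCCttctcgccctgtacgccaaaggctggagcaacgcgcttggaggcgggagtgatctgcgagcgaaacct

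This window has 1 GC box and no other of the searched motifs. No other Sm gene was called. Snrpg was at 62.8, 63.3 and 74.2 CPM in control and 72.1, 79.5 and 73.9 CPM in LPS libraries (log2FC 0.17, adjusted p = 0.0647), with 1 control library above 2 LPS libraries. Snrpf ran 37.8, 27.0 and 26.3 CPM in control and 29.8, 31.4 and 35.7 CPM with LPS, the widest interval of all members. The log2FC of Snrpf was 0.09 (adjusted p = 0.608). Without control replicate 1 it was 0.27 (adjusted p = 0.0359), and without control replicate 3 it was -0.01 (adjusted p = 0.969). Snrpe has a processed pseudogene, Snrpert, with between 72 and 112 counts per library, and reads of the near-identical copies may be split between them. Snrpd3 was at 0.13, Snrpe at 0.09 and Snrpd1 at -0.02 in log2FC, each with overlapping libraries. Without control replicate 1, Snrpd3 was at 0.22 (adjusted p = 0.0141), and without control replicate 2 at 0.04 (adjusted p = 0.734). Over the leave-one-out fits Snrpe ran from -0.02 to 0.20 in log2FC and was not called. Snrpb, which encodes SmB, had 346, 278 and 307 CPM in control and 304, 303 and 313 CPM in LPS libraries, and the LPS libraries lay inside the range of the controls. Snrpn, the imprinted gene for SmN that takes the place of SmB in neurons, was at 17.6, 15.1 and 16.7 CPM in control and 15.8, 17.4 and 14.9 CPM in LPS libraries. It shares exons with Snurf, encoded by the same transcript, and the groups overlapped. Among the 4 proteins specific to U1 or U2, none was called. Snrpb2, which binds a stem-loop of U2 snRNA, came closest, at 70.9, 65.4 and 67.0 CPM in control and 64.5, 61.4 and 58.2 CPM with LPS (log2FC -0.14, adjusted p = 0.0639), and its libraries did not overlap. Snrpa, the U1 stem-loop binding protein, also had separate libraries, with means of 98.4 ± 1.93 CPM (SD, n = 3) in control and 103.5 ± 2.59 CPM in LPS libraries (log2FC 0.07, adjusted p = 0.235). Snrpa1 (0.03 in log2FC) and Snrpc (0.05) had overlapping libraries.

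Levels can be compared between genes only per length, and CPM per kilobase of the deposited gene length was used. That length is given per gene and can differ from that of the transcripts expressed, and the order of genes depends on it. Hnrnpab was highest at 408 ± 36.8 CPM per kilobase (SD, n = 3) in control and 401 ± 8.14 in LPS libraries. Hnrnpa1 followed at 183 ± 12.3 in control libraries, then Snrpb at 157 ± 17.1, Hnrnpa0 at 156 ± 9.69 and Hnrnpa2b1 at 147 ± 6.62. The last 3 of these did not differ beyond their spread in control libraries. Of the tested SR genes Srsf2 was highest at 116 ± 3.32 and Srsf4 lowest at 5.16 ± 0.43. U2af1 stood at 116 ± 2.53 and U2af2 at 63.7 ± 4.34 in control libraries. Within SF3B, Sf3b2 (110.0 ± 2.04) and Sf3b4 (93.9 ± 2.92) were above Sf3b1 (25.2 ± 0.90) and Sf3b3 (25.5 ± 1.59). Before division by length, control means were 355.5 CPM for Sf3b2, 203.0 for Sf3b4, 286.5 for Sf3b1 and 278.7 for Sf3b3. The Sm genes ran from 157 ± 17.1 for Snrpb and 122 ± 2.87 for Snrpd1 down to 7.63 ± 0.57 for Snrpn. Srsf11, the most changed member, moved from 21.4 ± 1.00 to 27.6 ± 1.01 CPM per kilobase, passing Srsf10, which went from 22.3 ± 0.77 to 20.4 ± 0.29. The summed level of the 55 genes was 13381, 12657 and 12769 CPM in control and 13110, 13132 and 13266 CPM in LPS libraries, and on this scale the LPS libraries lay within the range of the controls. As a share of the library total it was 1.38%, 1.31% and 1.32% in control and 1.26%, 1.27% and 1.29% in LPS libraries, so that by library totals every LPS library lay below every control.

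**Figure D4:**
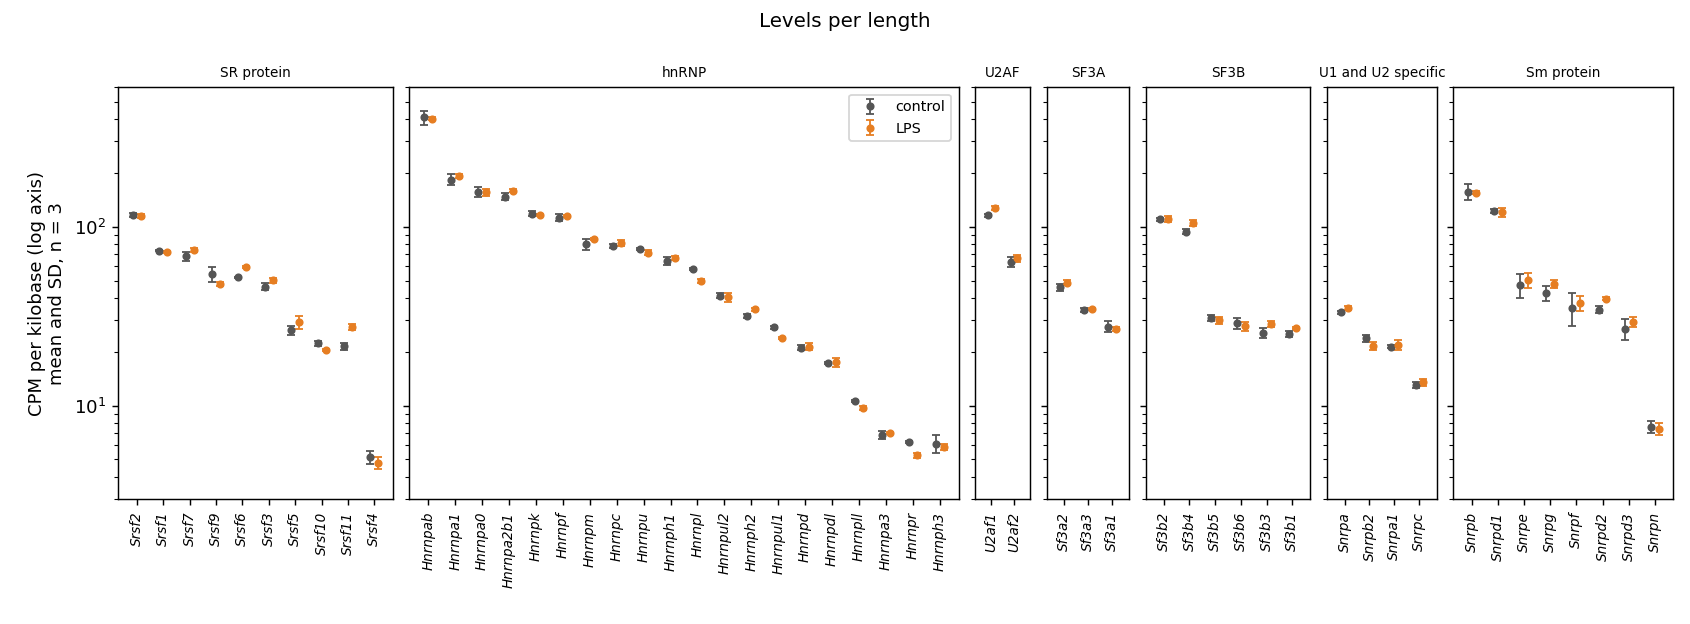
Mean level and SD (n = 3) of the 53 tested members in CPM per kilobase (log axis), in panels by role, for control (grey) and LPS (orange) libraries. Hnrnpab at 408 in control libraries stands above all others, and the control and LPS points of a gene lie close together.

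The median coefficient of variation of the members was 4.30% in control and 3.20% in LPS libraries, compared with 4.51% and 4.35% for tested genes at or above the lowest member's mean count. High and low values were not evenly spread over the control libraries. Control replicate 1 was the highest control library for 33 of 53 members (62.3%), and for 37.2% of all tested genes. Control replicate 2 was the lowest for 27 members (50.9%), and for 34.5% of all tested genes. Transcripts retained in the nucleus, summed over Malat1 and 3 others, were at 106 CPM in control replicate 1 against 173 and 151 CPM in the other controls, and at 112, 218 and 274 CPM in LPS replicates 1, 2 and 3. The part of these differences in the results was not tested. Without control replicate 1, 12 members were up-regulated and 5 down-regulated, beside 2152 and 1929 of the 12538 genes tested in that fit. With control replicates 2 and 3 left out together, 6 were up-regulated and 5 down-regulated, 8 of the 14 calls were still made, and the median log2FC of the members was -0.0133.

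Of the 14 calls, 6 were made in each of the 6 leave-one-out fits, for Srsf11, Srsf6, Snrpd2, Hnrnpr, Hnrnpl and Hnrnpul1. The other 8 were lost in at least 1 of them. The call of Sf3b3 was lost without control replicate 1 or 3 or LPS replicate 2 or 3 (adjusted p from 0.0557 to 0.0865) and that of Hnrnpa2b1 without control replicate 2 or 3 or LPS replicate 2 or 3 (0.0687 to 0.169). That of Srsf10 was lost without control replicate 2 or any LPS library (0.0529 to 0.114) and that of Hnrnpll without control replicate 3 or any LPS library (0.0529 to 0.109). U2af1 was called only without LPS replicate 2 (otherwise 0.051 to 0.145), Hnrnph2 only without control replicate 1 (otherwise 0.0527 to 0.177) and Srsf9 only without control replicate 2 (otherwise 0.0528 to 0.146). Srsf11, Hnrnpr, Hnrnpl and Hnrnpul1 were called in all 16 alternative fits. Srsf6 was lost with library totals alone (adjusted p = 0.051, log2FC 0.10), as was Snrpd2 (adjusted p = 0.0929, log2FC 0.11). Over the leave-one-out fits, Srsf11 ran from 0.32 to 0.39 in log2FC, Hnrnpr from -0.28 to -0.23, Hnrnpl from -0.24 to -0.20 and Hnrnpul1 from -0.22 to -0.20. No member was called in the opposite direction by any of these fits, and 21 of the 39 members not called were called by none of them.

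**Figure D5:**
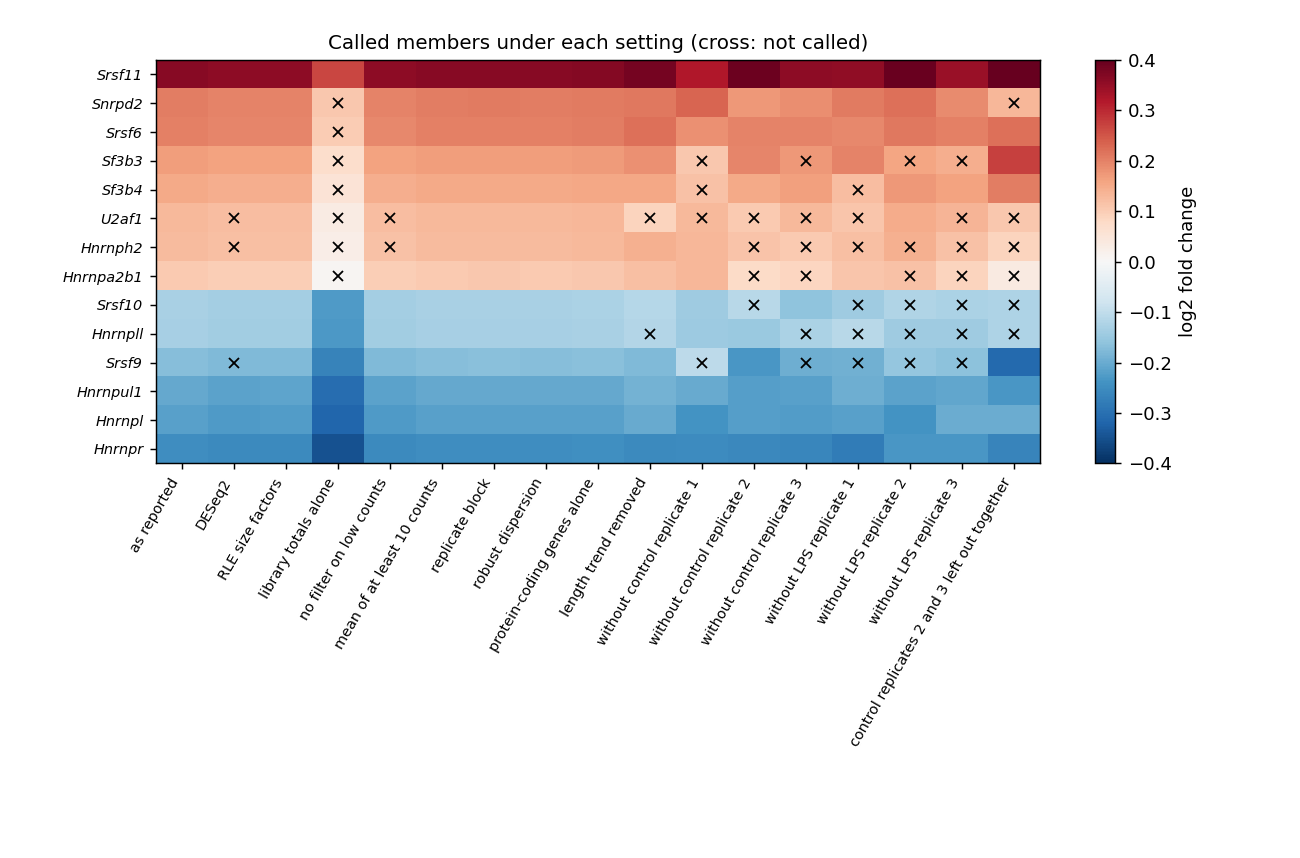
Log2 fold change (colour) of the 14 called members in the reported fit and 16 alternative fits, with a cross where the member was not called. Srsf11, Hnrnpul1, Hnrnpl and Hnrnpr have no cross, and with library totals alone 7 of the 8 upward calls have one.

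The rest of the pathway was read from a written list of 179 other splicing genes, of which 175 were tested, 30 were up-regulated (17.1%) and 13 were down-regulated (7.43%), with a median log2FC of 0.04. Over all tested genes 18.7% were up-regulated and 15.7% down-regulated, so that the up-regulated share of the list was near that of all genes. The same shares are the background of its sub-lists. With library totals alone the counts of the list were 12 and 35, and those of all tested genes 1520 and 3342. Mbnl1 and Tardbp exceeded an absolute log2FC of 0.5, which no member did. Tardbp, which encodes TDP-43, a repressor of cryptic exons, had 286, 279 and 272 CPM in control and 413, 412 and 422 CPM in LPS libraries (log2FC 0.58 ± 0.04 (SE), adjusted p = 2.44e-08). Mbnl1, a regulator of developmental splicing switches, had 255, 271 and 259 CPM and 169, 174 and 167 CPM with LPS, with every LPS library below every control (log2FC -0.62 ± 0.04 (SE), adjusted p = 3.22e-08). Its paralog Mbnl2 went the other way, from 121, 144 and 133 CPM to 166, 168 and 177 CPM (log2FC 0.36 ± 0.06 (SE), adjusted p = 0.000217). Celf2, which often opposes the muscleblind proteins, fell from 49.8, 45.7 and 46.9 CPM to 36.8, 38.7 and 35.6 CPM (log2FC -0.36 ± 0.06 (SE), adjusted p = 0.000514). In the list of other regulators as a whole, 6 of 38 rose and 6 fell.

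Among 15 genes of the exon junction complex and NMD, 5 rose and 1 fell. Magohb, a core protein of the junction complex, rose with a log2FC of 0.45 (adjusted p = 0.0345). Smg6, the endonuclease of NMD, fell from 28.8, 34.0 and 32.1 CPM to 24.4, 24.0 and 24.4 CPM (log2FC -0.38 ± 0.08 (SE), adjusted p = 0.0018). Of 23 partners of U1 and U2, 5 rose and 1 fell. Luc7l, a U1-associated protein that acts on 5′ splice site choice, was at 62.1, 61.0 and 61.5 CPM in control and 89.1, 83.1 and 77.5 CPM in LPS libraries (log2FC 0.44 ± 0.06 (SE), adjusted p = 2.35e-05). Its relative Luc7l3 had a log2FC of 0.30 (adjusted p = 0.000282), and the helicase Ddx42 fell (log2FC -0.20, adjusted p = 0.00739).

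Of 14 SR-related genes 2 rose and none fell, namely Scaf4 (log2FC 0.31, adjusted p = 0.00024) and Acin1 (log2FC 0.23, adjusted p = 0.00169). Of 11 kinases, phosphatases and import factors of SR proteins, only Ppm1g, a phosphatase with a part in spliceosome assembly, was called (log2FC -0.12, adjusted p = 0.0487). In the tri-snRNP 3 of 19 rose, with Prpf38b at 0.29 and Prpf4 at 0.16 in log2FC, and none fell. In the catalytic complexes 4 of 23 rose and 2 fell, with Dhx8 at 0.21, Cdc40 at 0.21, Ppil1 at -0.27 and Bcas2 at -0.16. Of 10 LSm genes 2 rose and 1 fell. The 2 were Lsm10 (0.37) and Lsm11 (0.28), which belong to the U7 snRNP of histone pre-mRNA processing, and Lsm2 was at -0.15. Of 7 genes of the minor spliceosome Snrnp48 rose (0.39) and Zcrb1 fell (-0.20). Of 15 tested snRNP assembly genes 2 rose, Phax, the export adaptor of snRNA (0.31), and Gemin5 (0.13).

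Other lists moved with LPS beside the members. Of 20 proliferation genes 19 were down-regulated and none was up-regulated, with a median log2FC of -0.38, and their summed level was between 4915 and 5106 CPM in control and between 3857 and 3898 CPM in LPS libraries. The part of this difference in the falls of Hnrnpr, Hnrnpl and Hnrnpul1 was not tested. Summed markers of neurons, astrocytes, oligodendrocytes and endothelial cells lay between 27.3 and 117 CPM for each list in each library. Summed hepatocyte markers were between 57.1 and 85.4 CPM in control and between 130 and 134 CPM in LPS libraries, of which most was Hp, an acute-phase gene also made by myeloid cells, with 883 to 949 counts in control and 1965 to 2115 in LPS libraries.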

How the data were processed

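The authors deposited a table of raw read counts per gene, without normalization, for 6 libraries. The counting program was featureCounts 1.5.0-p3 and the build mm10, both credited to the submitters' processing notes. The aligner, the annotation and the strand setting are not given in the sources used here. The deposited gene length, in bases and of no other unit, served for levels per kilobase. The authors' table of their own comparison (fold changes and p-values) was not used, nor were its 18 further columns per sample and 2 columns of group means.

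Members were taken by symbol and protein-coding biotype, which left out 5 matching genes of other biotypes. Members and gene lists were chosen with earlier results of these data known. Groups came from the labels. LPS was tested against control with edgeR 4.0.16 under R 4.3.3 (quasi-likelihood test, TMM factors from 0.9646 to 1.0363, filterByExpr by group, prior count 0.125, prior degrees of freedom 10.07, no replicate block). P-values were adjusted over 12296 genes by the Benjamini-Hochberg method, and a member was called at an adjusted p under 0.05 at any fold. Since reads carry no molecular identifiers, counting floors cover counting error only. Within groups, chi-square per gene between library pairs ran from 3.55 to 7.72, above counting noise alone, which can include the spread of library preparation, and samples were taken as labelled.

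Members named in full were up to 10 called in each direction at a mean of at least 50 counts, with a fixed set of core members and any other whose libraries did not overlap or that was singled out after its values were seen. From each list of other splicing genes, up to 2 rises and 2 falls were named, and 1 gene that the rule names is not reported here. Promoters came from RefSeq (GRCm38.p6) and transcript types from GENCODE M21. Alternatives were DESeq2 1.42.0, RLE size factors, library totals, other filters, a replicate block, robust dispersion, protein-coding genes alone, a removed length trend (lowess span 0.3), a prior count of 2, other thresholds and libraries left out. On simulated counts for this comparison, among 12304 tested genes, edgeR recovered 21 of 50 genes changed by 0.25 on the log2 scale, 49 of 50 changed by 0.5 and 50 of 50 changed by 1, with 15 false calls. Far fewer genes were changed in the simulation than were called in the data. Figures used matplotlib 3.10.9 and tables pandas 2.3.3 under Python 3.11.15.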

Additional observations from a re-analysis of the deposited data

How the results depend on the processing

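At this depth most members had intervals within 1.25-fold. In simulated counts fewer than 1 in 2 changes of 0.25 on the log2 scale were recovered. Far fewer genes were changed there than were called in the data, which makes the adjusted p stricter. That share therefore does not measure recovery for the members. Small changes of members not called may still have been missed. With library totals alone, 1 member was up-regulated and 13 were down-regulated instead of 8 and 6, the other splicing genes were at 12 and 35 instead of 30 and 13, and all tested genes at 1520 and 3342 instead of 2294 and 1927. At an adjusted p under 0.01, 3 members rose and 3 fell, 17 and 6 of the other splicing genes, and 1681 and 1261 of all tested genes. With the study's fold threshold, 0 members and 0 other splicing genes were called in either direction in edgeR, against 295 and 31 of all tested genes; at an unadjusted p under 0.05 there were 21 members and 5260 of all tested genes, and DESeq2 at any fold called 7 up-regulated and 5 down-regulated members, beside 1980 and 1615 of 13916 genes. In the leave-one-out fits, up-regulated members numbered from 4 (without LPS replicate 3) to 12 (without control replicate 1) and down-regulated members from 3 (without LPS replicate 2 or 3) to 6, and down-regulated other splicing genes from 7 to 12, while all genes tested ran from 1833 to 2152 up-regulated and from 1546 to 1929 down-regulated. Up-regulated members numbered 5 without control replicate 2, control replicate 3 or LPS replicate 2. With control replicates 2 and 3 left out together, 5 other splicing genes fell, and 1681 of 12940 tested genes rose and 1151 fell, in a fit where the lone control library is assumed to vary like the LPS libraries.

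The median log2FC of the members was 0.0313 as reported, 0.0241 with DESeq2, 0.0246 with RLE size factors, 0.0238 without a filter on low counts, 0.0419 with the length trend removed, -0.067 with library totals alone and -0.0133 with control replicates 2 and 3 left out together. Leave-one-out values ran from 0.0099 to 0.033. The cause of these shifts was not tested.

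The labels do not say whether replicate numbers pair the libraries. Correlations of same-numbered deviations from the group means were 0.136, 0.059 and -0.004. Those of differently numbered libraries ran from -0.144 to 0.091. With so few libraries these values cannot decide whether the libraries were paired. With the replicate block 11 members were up-regulated and 7 down-regulated, with a median log2FC of 0.0318, beside 2454 and 2020 of all tested genes. Srsf3, Srsf7, Snrpg and Snrpb2 were then called (adjusted p = 0.0162, 0.0397, 0.037 and 0.0391).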
